A study of Mus musculus with 8 samples.

Results

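The genes described here encode the proteasome, with its assembly factors, activators and inhibitor, measured by RNA-seq in mouse embryonic stem cells. They were chosen by symbol, as the features named Psma, Psmb, Psmc, Psmd, Psme, Psmf or Psmg plus a number in a table of 55292 features, leaving out the immunoproteasome genes Psmb8 and Psmb9. Of 48 symbols of that pattern, 46 remained, and Psmb11, a thymus-specific subunit with 0 or 1 count in every library, was dropped for low counts. All 45 other genes passed the filter on low counts and were tested among 17342 genes. They comprised 7 genes of the alpha ring, 7 of the beta ring, 6 base ATPases, 3 other base subunits, 8 lid subunits, 7 assembly factors, 5 activators or inhibitors, and the tissue-specific core subunits Psma8 and Psmb10.

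The cells were of the E14 line (strain 129/Ola), grown on gelatin with serum and leukaemia inhibitory factor. The group KO_Smad7 carried lncSmad7-/-, labelled as a knockout of a long noncoding RNA, and its label gives transfection with Smad7, which encodes an inhibitory Smad of TGF-beta signalling, with 24 h in the sample description. The group KO carried lncSmad7-/- and was untreated. The group WT was wild type E14, also untreated. Each group had 2 libraries, the number of knockout clones was not stated, and the libraries used hold no mock-transfected knockout. No label says that replicates were grown separately. A p-value here therefore weighs a difference against the scatter of these libraries, part of which could be technical.

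The proteasome degrades proteins that carry ubiquitin chains. Its core is a barrel of alpha rings around beta rings, and the subunits Psmb5, Psmb6 and Psmb7 hold the chymotrypsin-like, caspase-like and trypsin-like active sites. A regulatory cap binds the barrel. The base of the cap, a ring of ATPases, unfolds substrates and opens the gate of the barrel, and the lid, with the deubiquitinase Psmd14, removes ubiquitin. Core, base and lid together make the complete proteasome. Genes for these subunits are known to be regulated together in mammals, through the transcription factor Nfe2l1 when proteasome activity falls.

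Total counts were 13392941 and 15972163 in the libraries labelled KO_Smad7, 20159897 and 19455030 in KO, and 19260386 and 20209760 in WT. Values below are CPM (counts scaled to a common library size, with TMM factors). The lncSmad7 feature averaged 10.99 ± 0.30 CPM in the libraries labelled KO_Smad7, 6.33 ± 1.14 CPM in KO and 13.2 ± 1.2 CPM in WT (SD, n = 2 each). KO thus kept 0.482-fold of the WT level, with 140 and 105 counts, which is not the absence that a knockout label names. Whether the counted feature lies in the deleted part was not stated. Smad7 averaged 96.6 ± 3.9 CPM in the libraries labelled KO_Smad7, 72.5 ± 4.2 CPM in KO and 97.65 ± 0.05 CPM in WT, 1.33-fold higher in the libraries labelled KO_Smad7 than in KO. Both lncSmad7 and Smad7 were thus higher than in KO in libraries labelled for Smad7 alone, and every direction given for KO_Smad7 rests on that label. The 8 stem cell markers summed to 4385 and 4370 CPM in the libraries labelled KO_Smad7, 6580 and 6676 CPM in KO, and 4850 and 4926 CPM in WT. Single markers differed in order. Pou5f1 had 569 and 586 CPM in the libraries labelled KO_Smad7, 1050 and 1080 CPM in KO, and 949 and 952 CPM in WT. Tdgf1 was lowest in WT and Utf1 highest there. The 7 fibroblast and feeder markers summed to at most 8.76 CPM and the 4 haematopoietic markers to at most 1.84 CPM. The 6 primitive endoderm markers, all detected, summed to 12.7 and 12.8 CPM in the libraries labelled KO_Smad7, 6.83 and 6.57 CPM in KO, and 103.2 and 96.6 CPM in WT. The 6 trophectoderm markers, of which 4 had at least 10 counts in 2 libraries, summed to between 11.7 and 36.8 CPM, highest in WT. That order was set by Krt8, with 22.5 and 19.8 CPM in WT, and Krt18, with 9.85 and 9.62 CPM. Eomes and Hand1 were highest in the libraries labelled KO_Smad7. Eomes had 6.07 and 6.22 CPM there and 3.42 and 1.85 CPM in WT, and Hand1 had 1.23 and 1.51 CPM beside 0.708 and 0.559 CPM. The part of these marker differences in the results below was not tested.

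Transcripts of the proteasome genes were lowest in the libraries labelled KO_Smad7, intermediate in KO and highest in WT. Together they took 0.503% and 0.502% of all counts in the libraries labelled KO_Smad7, 0.754% and 0.767% in KO, and 0.903% and 0.927% in WT. Mean levels followed this order for 40 of the 45 genes, and for 35 of them no library of a group overlapped with another group. Of all genes tested, 41.8% had libraries apart and below in KO_Smad7 against KO, and 40.1% in KO against WT. The share of all genes with both was not computed, so the 35 cannot be set against it. Mitochondrial transcripts took 2.48% and 2.33% of counts in the libraries labelled KO_Smad7, 1.40% and 1.37% in KO, and 1.58% and 1.53% in WT. Ribosomal protein genes took 3.69% and 3.65% in the libraries labelled KO_Smad7, 5.36% and 5.66% in KO, and 4.91% and 5.12% in WT. With both classes of transcript left out of the total, the share of the proteasome genes was between 0.534% and 0.537% in the libraries labelled KO_Smad7, 0.809% and 0.825% in KO, and 0.966% and 0.993% in WT. These are shares of each library's RNA. In bulk samples fewer cells of a type and less RNA per cell cannot be told apart.

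The comparison of KO_Smad7 with KO asks, by its labels, what transfection with Smad7 goes with in knockout cells. KO was untreated, so added Smad7, the transfection itself and the 24 h cannot be told apart in it. Of the 45 genes, 44 fell in the libraries labelled KO_Smad7 and 1, the base ATPase gene Psmc6, rose, by edgeR's quasi-likelihood test at an adjusted p under 0.05. Of all genes tested, 74.6% were called in this comparison, 36.8% lower and 37.8% higher. The median log2 fold of the 45 genes was −0.87 (0.549-fold), against 0.04 for all genes tested. The libraries of the 2 groups did not overlap for any of the 45 genes, and 44 lay below, where 41.8% of all genes tested had libraries apart and below and 44.5% apart and above. Standard errors of the log2 folds ran from 0.036 to 0.13. The table also holds 6 features named as copies of proteasome genes, each with at most 18 counts in a library. Copies under other names were not examined. Exons of 11 of the 45 genes overlap another gene, by up to 25.5% of their length in Psmd9.

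The comparison of KO with WT asks what the lncSmad7-/- genotype goes with in untreated cells. Of the 45 genes, 35 fell in KO, 2 rose and 8 were not called, where 67.7% of all genes tested were called, 33.3% lower and 34.5% higher. The median log2 fold was −0.34 (0.793-fold), against 0.02 for all genes tested. The libraries of KO lay below those of WT for 36 genes, and above them for 2, with 40.1% of all genes tested apart below and 42.4% apart above. The genes that rose were Psma8 and Psmd10. With library size scaling, which moved the median of all genes to 0.17, the counts were 29 lower and 5 higher, the added higher genes being Psmb2, Psme1 and Psmg2. In KO_Smad7 over KO the same scaling moved the median of all genes to 0.29. Relative to the median of all genes, that of the 45 lay at −0.90 in KO_Smad7 over KO and −0.36 in KO over WT, a difference that a change of scaling factors does not alter. With offsets for GC content and length it was −0.75 in KO_Smad7 over KO and −0.27 in KO over WT. Between KO_Smad7 and WT, 43 genes were lower and 2, again Psma8 and Psmd10, higher, where 81.9% of all genes tested were called, 38.8% lower and 43.1% higher. Their libraries were apart in the same directions, as were those of 42.4% of all genes tested below and 47.5% above. These 45 genes had a median log2 fold of −1.17 (0.443-fold). The 3 comparisons share libraries, so their values are only set side by side.

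**Figure D1:**
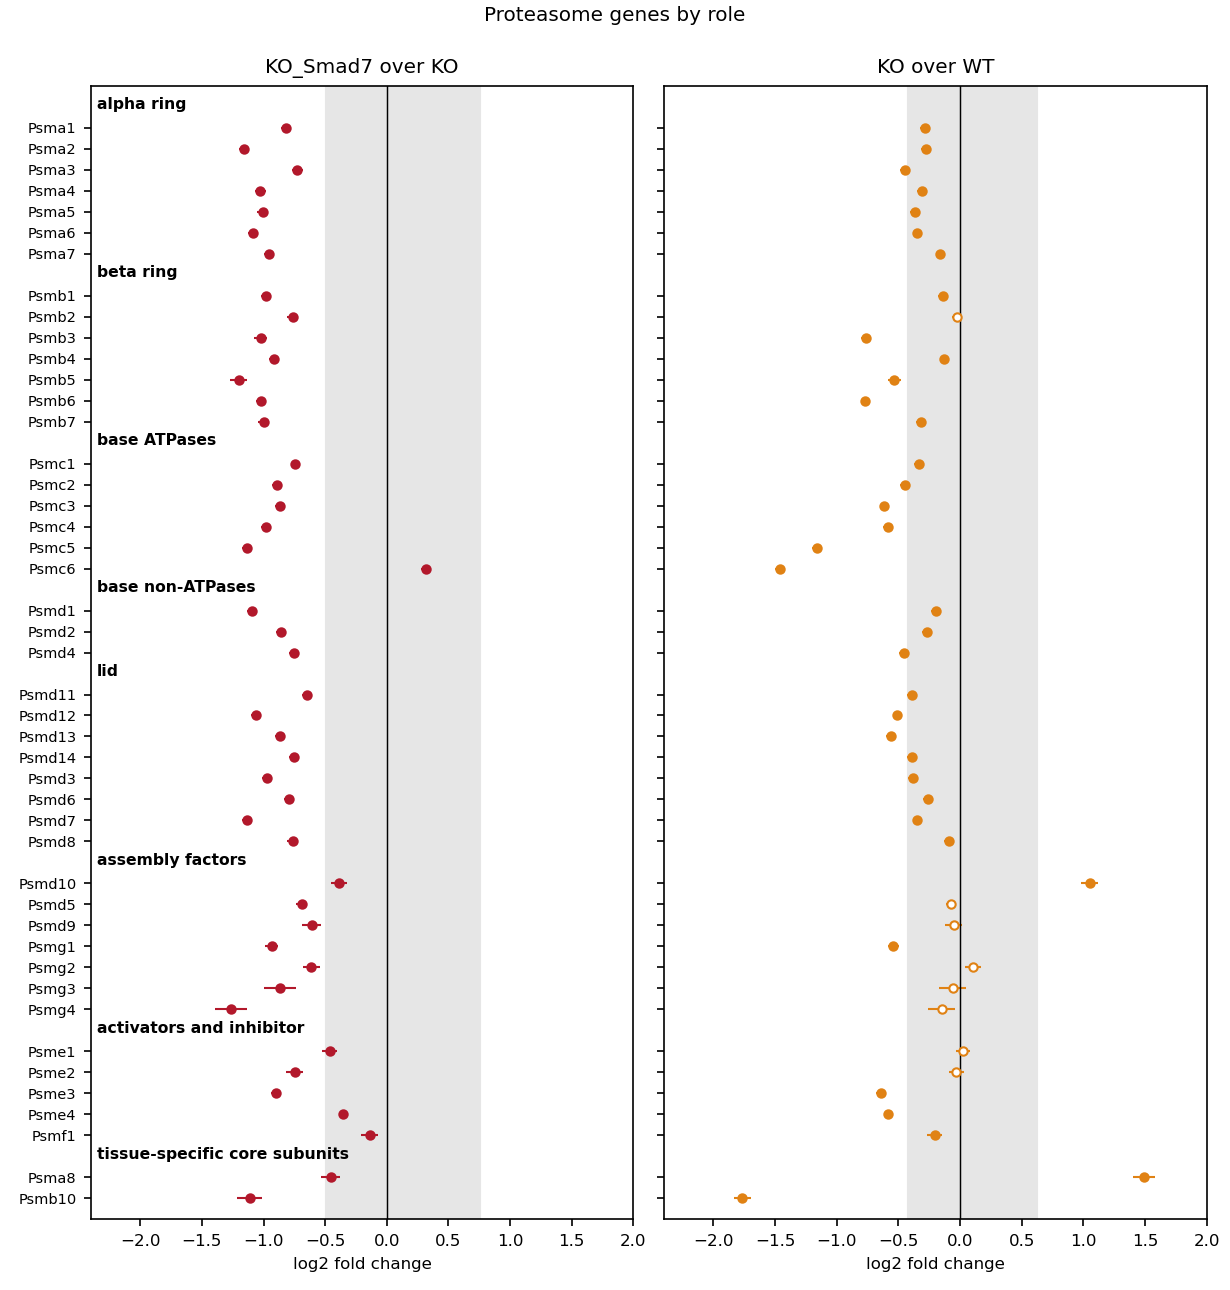
Log2 fold change of each proteasome gene (points, grouped by role) in KO_Smad7 over KO and in KO over WT, with the standard error as a bar; open points were not called, and the grey band is the interquartile range of all genes tested. Nearly all points of the KO_Smad7 over KO panel lie below 0, with Psmc6 at 0.32 the exception, and 5 of the 7 assembly factors are open points in KO over WT.

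The subunits of the core were lower together. All 14 alpha and beta ring genes were called lower in the libraries labelled KO_Smad7 than in KO, with log2 folds between −1.20 (Psmb5) and −0.73 (Psma3) and a median of −1.0. In KO against WT 13 of the 14 were called lower, between −0.77 (Psmb6) and −0.13 (Psmb4), with a median of −0.32. When scaled by library size, 10 were lower and 1 higher, with a median of −0.17, and Psma7 (−0.02), Psmb1 (0.005) and Psmb4 (0.02) lost their calls. The exception, Psmb2, a structural beta subunit, had a log2 fold of −0.02 (adjusted p = 0.6). Summed over the 14 genes, the level was 1323 ± 13 CPM in the libraries labelled KO_Smad7, 2584 ± 55 CPM in KO and 3248 ± 100 CPM in WT (SD, n = 2 each).

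Psmb5, which encodes the chymotrypsin-like subunit, the main target of bortezomib, had 20.8 and 20.6 CPM in the libraries labelled KO_Smad7, 48.1 and 46.8 CPM in KO, and 67.1 and 70.1 CPM in WT. The 3 groups did not overlap. Its log2 fold was −1.20 (SE 0.07, adjusted p = 1.6e-36) in KO_Smad7 over KO and −0.53 (SE 0.06, adjusted p = 8.5e-17) in KO over WT. Psmb6, the caspase-like subunit, had 106.6 and 109.2 CPM in the libraries labelled KO_Smad7, 216.9 and 220.4 CPM in KO, and 370.6 and 375.5 CPM in WT. Its groups were apart too. Its log2 folds of −1.02 (SE 0.04) in KO_Smad7 over KO and −0.77 (SE 0.04) in KO over WT were both called. Psmb7, the trypsin-like subunit, had 83.6 and 83.0 CPM in the libraries labelled KO_Smad7, 164.9 and 168.2 CPM in KO, and 200.2 and 215.3 CPM in WT. The first step was again the greater for Psmb7, at −1.0 (SE 0.04, adjusted p = 2.5e-49) in KO_Smad7 over KO beside −0.32 (SE 0.04, adjusted p = 3.5e-13) in KO over WT. With offsets for GC content and length the order turned for Psmb6, at −0.76 in KO_Smad7 over KO and −0.99 in KO over WT. It held for Psmb5 and Psmb7.

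The alpha subunits form the gated entrance of the barrel. Psma2 had 109.2 and 110.7 CPM in the libraries labelled KO_Smad7, 239.5 and 252 CPM in KO, and 292 and 303.8 CPM in WT. It had the greatest fall of the alpha ring in KO_Smad7 over KO, with a log2 fold of −1.16 (SE 0.04, adjusted p = 5.6e-60), and −0.28 (SE 0.04) in KO over WT, which became 0.21 under offsets for GC content and length. Psma3 had 84.1 and 80.7 CPM in the libraries labelled KO_Smad7, 130.8 and 141.6 CPM in KO, and 182.8 and 188.6 CPM in WT. It had the greatest fall of the alpha ring in KO over WT, −0.45 (SE 0.04, adjusted p = 2.7e-20), and the least in KO_Smad7 over KO, −0.73 (SE 0.05). Neither rank held with offsets for GC content and length, where Psma3 was at −1.08 in KO_Smad7 over KO and −0.13 in KO over WT. No alpha ring gene had overlapping groups in either comparison.

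The base held the member that moved against the rest. All 9 base genes were called lower in KO than in WT, with a median log2 fold of −0.46, and 8 of 9 were called lower in the libraries labelled KO_Smad7 than in KO, with a median of −0.87. In KO over WT the median was −0.60 over the 6 ATPase genes and −0.27 over the 3 other base genes, and the ranges overlapped, with Psmd4 at −0.46 beside Psmc1 at −0.34. With offsets for GC content and length all 9 base genes were called lower in both comparisons. Their medians were then close, at −0.78 in KO_Smad7 over KO and −0.73 in KO over WT. The summed level of the base was 1323 ± 7.4 CPM in the libraries labelled KO_Smad7, 2335 ± 10 CPM in KO and 3357 ± 48 CPM in WT (SD, n = 2 each).

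Psmc6, an ATPase of the base ring, lies at chr14:45329788-45349705 on the plus strand (GRCm38, GENCODE). It had 153.6 and 143.4 CPM in the libraries labelled KO_Smad7, 118.1 and 120.3 CPM in KO, and 326.6 and 331 CPM in WT. The libraries labelled KO_Smad7 lay above KO and below WT. Its log2 fold was 0.32 (SE 0.04, adjusted p = 1.1e-11) in KO_Smad7 over KO and −1.46 (SE 0.04, adjusted p = 6.4e-75) in KO over WT, the greatest fall of any base, core or lid gene in the second comparison. Set against the mean CPM of the other 5 ATPase genes, the ratio was 1.45 and 1.35 in the libraries labelled KO_Smad7, 0.592 and 0.606 in KO, and 1.07 and 1.06 in WT. CPM are not corrected for length, so this ratio can be compared between groups but does not give relative numbers of transcripts. Per length of exon, Psmc6 was at 94.0 RPKM in WT, and the other 5 ran from 50.6 RPKM (Psmc2) to 271 RPKM (Psmc5). Psmc6 transcripts have a GC content of 42.1%, and genes of low GC content moved with these groups, as given below. With offsets for GC content and length its log2 fold in KO_Smad7 over KO turned to −0.10 (adjusted p = 0.015). That in KO over WT was −1.07, a smaller fall than that of Psmc5 at −1.34 with the same offsets. Over 15 alternative settings the log2 fold of Psmc6 in KO_Smad7 over KO ran from −0.10 to 0.56. It was 0.56 with library size scaling (adjusted p = 1.1e-27) and 0.32 by edgeR's glmTreat against a fold of 1.2 (adjusted p = 0.056). The nearest genes tested were Ero1l, 11017 bases away, with log2 folds of 1.04 in KO_Smad7 over KO and 0.90 in KO over WT, and Styx, 1388 bases away, with 1.39 and −0.80.

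Psmc5, a further ATPase of the ring, known as Rpt6, lies at chr11:106256154-106263120 on the plus strand. It had 76.3 and 77.4 CPM in the libraries labelled KO_Smad7, 170.1 and 167.7 CPM in KO, and 369 and 385.8 CPM in WT. It fell in both comparisons, with log2 folds of −1.14 (SE 0.04, adjusted p = 2.6e-55) in KO_Smad7 over KO and −1.16 (SE 0.04, adjusted p = 1.3e-64) in KO over WT. With offsets for GC content and length the values were −0.81 in KO_Smad7 over KO and −1.34 in KO over WT. The fold of KO_Smad7 to WT was 0.204. Its neighbours Ftsj3, 75 bases away, and Smarcd2, 59 bases away, had log2 folds of −1.33 and −0.87 in KO_Smad7 over KO and −0.95 and −0.15 in KO over WT. Reads at such close ends could be shared if counting took no account of strand, a setting the sources do not state.

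Psmd1, a large scaffold of the base, had 200.3 and 204.8 CPM in the libraries labelled KO_Smad7, 441.5 and 425.4 CPM in KO, and 497.4 and 497.1 CPM in WT. Most of its difference lay in the first comparison, with log2 folds of −1.10 (SE 0.04) in KO_Smad7 over KO and −0.20 (SE 0.04) in KO over WT. The fall in KO over WT lost its call with library size scaling, at −0.05. Psmd4, a ubiquitin receptor of the base, had 121.2 and 123.7 CPM in the libraries labelled KO_Smad7, 205.3 and 208.4 CPM in KO, and 273.8 and 293.7 CPM in WT. It fell in both comparisons, by log2 folds of −0.76 (SE 0.04) in KO_Smad7 over KO and −0.46 (SE 0.04) in KO over WT. With offsets for GC content and length the second fall was the greater, at −0.73 beside −0.62 in KO_Smad7 over KO.

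All 8 lid genes were called lower in both comparisons, with a median log2 fold of −0.83 in KO_Smad7 over KO and −0.39 in KO over WT. With offsets for GC content and length the medians of these genes were −0.85 and −0.53. Their sum was 941.8 ± 4.6 CPM in the libraries labelled KO_Smad7, 1750 ± 6.2 CPM in KO and 2278 ± 4.8 CPM in WT (SD, n = 2 each). The smallest fall in KO over WT was that of Psmd8, −0.09 (adjusted p = 0.036), a call that was lost whichever of the 6 libraries was left out and in several other settings. Psmd14, the deubiquitinase that cuts whole chains from substrates, had 110.4 and 104.1 CPM in the libraries labelled KO_Smad7, 179.6 and 181.3 CPM in KO, and 233.5 and 240 CPM in WT. Its log2 folds were −0.75 (SE 0.04, adjusted p = 1.5e-38) in KO_Smad7 over KO and −0.39 (SE 0.04, adjusted p = 1.6e-18) in KO over WT, where it turned to 0.21 under offsets for GC content and length. Psmd7, the partner of Psmd14 in the lid, had 143.1 and 145.6 CPM in the libraries labelled KO_Smad7, 316.5 and 317.1 CPM in KO, and 400.2 and 404.9 CPM in WT. Its log2 fold in KO_Smad7 over KO was −1.13 (SE 0.04), the greatest fall of the lid by TMM scaling. With offsets for GC content and length that of Psmd14 was greater, at −1.39 beside −0.97 for Psmd7. Psmd13 had 98.8 and 100.5 CPM in the libraries labelled KO_Smad7, 181.8 and 181 CPM in KO, and 270.3 and 265.6 CPM in WT, with the greatest fall of the lid in KO over WT, −0.56 (SE 0.04).

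**Figure D2:**
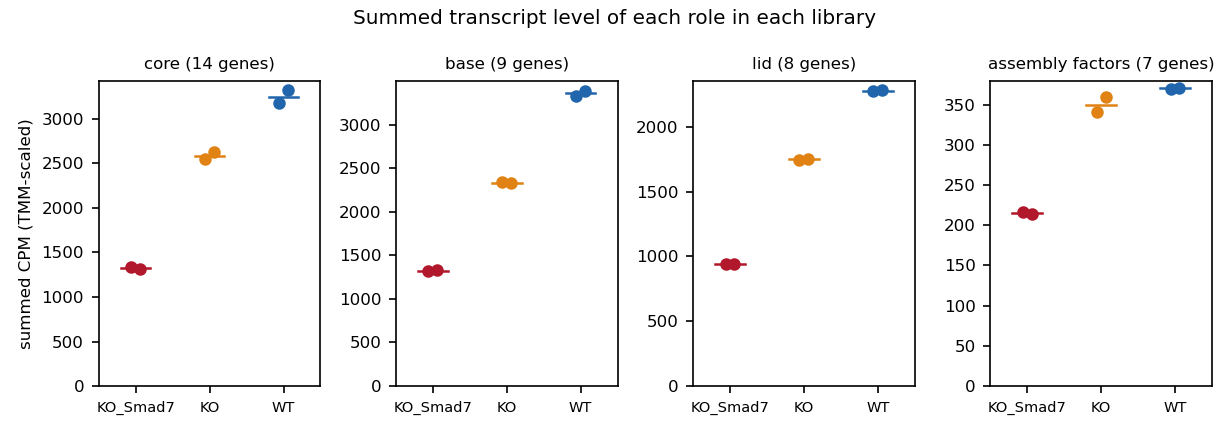
Summed CPM of the proteasome genes of each role in each of the 6 libraries (points), with the mean of each group as a line; the axis of each panel starts at 0. For core, base and lid the libraries labelled KO_Smad7 are lowest and WT highest with no overlap, while for the assembly factors KO, at 350.2 CPM, lies close to WT, at 370.4 CPM. The sum of the assembly factors holds opposite differences, with Psmg1 lower and Psmd10 higher in KO than in WT.

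The summed level of the 7 assembly factor genes was 215.3 ± 1.4 CPM in the libraries labelled KO_Smad7, 350.2 ± 13 CPM in KO and 370.4 ± 0.79 CPM in WT (SD, n = 2 each). In KO over WT 1 of 7 was called lower, 1 higher and 5 were not called, with a median log2 fold of −0.06, which became 0.09 when scaled by library size and −0.24, with 5 of 7 called lower, once offsets for GC content and length were used. With those offsets the median of the core was −0.27. The difference between assembly factors and subunits was not tested. In KO_Smad7 over KO all 7 were called lower, with a median of −0.69. Psmg1, which with Psmg2 starts the alpha ring, had 44.8 and 39.9 CPM in the libraries labelled KO_Smad7, 78.6 and 82.8 CPM in KO, and 116.5 and 118 CPM in WT. It was the assembly factor that fell in KO over WT, by a log2 fold of −0.54 (SE 0.05), and it fell by −0.93 (SE 0.05) in KO_Smad7 over KO. Psmg4, which with Psmg3 helps place alpha subunits, was low, with 4.78 and 4.81 CPM in the libraries labelled KO_Smad7, 10.6 and 12.5 CPM in KO, and 12.1 and 13.4 CPM in WT. KO and WT overlapped for Psmg4 (−0.15, adjusted p = 0.21), and the libraries labelled KO_Smad7 lay below KO (−1.26, SE 0.13, adjusted p = 3.5e-16).

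Psmd10, or gankyrin, a chaperone of the base ATPases on the X chromosome, had 33.0 and 35.4 CPM in the libraries labelled KO_Smad7, 46.1 and 43.4 CPM in KO, and 20.8 and 22.4 CPM in WT. KO was highest and WT lowest, with no overlap. Its log2 fold was −0.39 (SE 0.06, adjusted p = 3.7e-08) in KO_Smad7 over KO and 1.05 (SE 0.07, adjusted p = 2.7e-30) in KO over WT. It was the only X-linked gene of the 45. Of 631 X-linked genes tested, 428 (67.8%) were called higher in KO than in WT, with a median log2 fold of 0.87, while the 6 Y-linked genes tested had a median of −3.77 and 4 were called lower. For all values of KO against WT, the lncSmad7 genotype and any other difference between the KO and WT cells cannot be told apart.

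Of the 5 genes for activators, caps that open the barrel without ATP, and the inhibitor, all were called lower in KO_Smad7 over KO (median −0.46) and 3 in KO over WT (median −0.21). Psme1 and Psme2 encode the interferon-inducible activator. Psme1 had 42.5 and 40.2 CPM in the libraries labelled KO_Smad7, 57.0 and 56.7 CPM in KO, and 59.2 and 53.0 CPM in WT. Psme2 had 27.5 and 25.2 CPM in the libraries labelled KO_Smad7, 41.0 and 47.1 CPM in KO, and 45.4 and 44.5 CPM in WT. KO and WT overlapped for both (log2 folds 0.02 and −0.03, adjusted p = 0.73 and 0.69), and the libraries labelled KO_Smad7 lay below KO for both (−0.46, SE 0.06, and −0.75, SE 0.07). Psme3, the nuclear activator, had 115.5 and 119.7 CPM in the libraries labelled KO_Smad7, 211.5 and 226.8 CPM in KO, and 340.4 and 344.7 CPM in WT. It fell in both comparisons, by log2 folds of −0.90 (SE 0.04) in KO_Smad7 over KO and −0.65 (SE 0.04) in KO over WT.

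Psme4, the large nuclear activator, had 293 and 286.2 CPM in the libraries labelled KO_Smad7, 374.7 and 364.2 CPM in KO, and 553.1 and 554.1 CPM in WT. Its log2 folds were −0.35 (SE 0.04) in KO_Smad7 over KO and −0.58 (SE 0.04) in KO over WT. With offsets for GC content and length they were −1.61 in KO_Smad7 over KO and 0.19 in KO over WT, and Psme4 transcripts have the lowest GC content of the 45 genes, 38.4%. Psmf1, an inhibitor of the core, had 35.04 and 33.5 CPM in the libraries labelled KO_Smad7, 36.6 and 38.9 CPM in KO, and 44.5 and 42.6 CPM in WT. Its log2 fold of −0.14 in KO_Smad7 over KO (adjusted p = 0.047) lost its call in 7 settings and turned to 0.11 with library size scaling.

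The tissue-specific core subunits moved in opposite directions in KO over WT. Psma8, the alpha subunit of spermatocyte proteasomes, had 23.8 and 21.4 CPM in the libraries labelled KO_Smad7, 32.5 and 29.2 CPM in KO, and 11.6 and 10.4 CPM in WT. KO was highest, with log2 folds of −0.46 (SE 0.08, adjusted p = 5.1e-08) in KO_Smad7 over KO and 1.49 (SE 0.09, adjusted p = 7.4e-35) in KO over WT. Psmb10, the immunoproteasome counterpart of Psmb7, at chr8:105935735-105938444 on the minus strand, had 8.52 and 8.82 CPM in the libraries labelled KO_Smad7, 19.2 and 18.4 CPM in KO, and 64.6 and 63.1 CPM in WT. It had the greatest fall of the 45 genes in KO over WT, with a log2 fold of −1.77 (SE 0.07, adjusted p = 1.5e-55), and −1.11 (SE 0.10, adjusted p = 3.1e-20) in KO_Smad7 over KO. Its fold of KO_Smad7 to WT was 0.136.

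**Figure D3:**
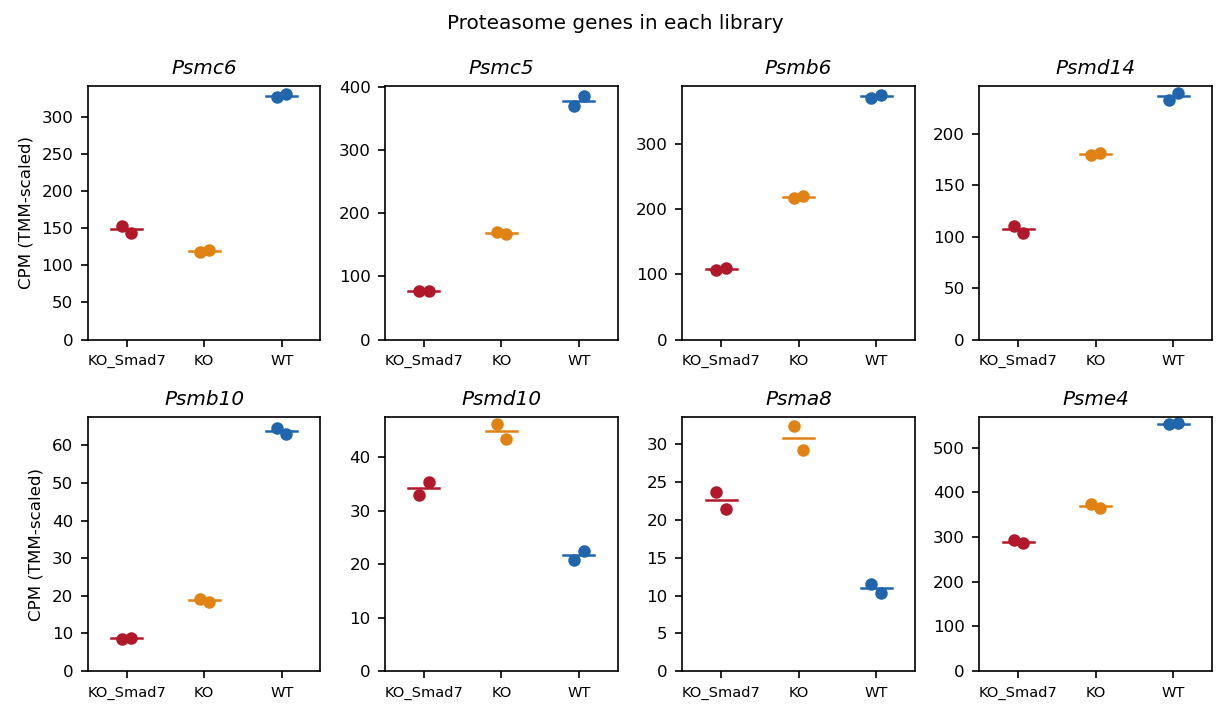
CPM of single proteasome genes in each library (points), grouped as KO_Smad7, KO and WT, with group means as lines and an axis from 0 in each panel. Psmc5, Psmb6 and Psmd14 fall stepwise to the libraries labelled KO_Smad7, Psmc6 is lowest in KO, Psmd10 and Psma8 are highest in KO, and Psmb10 is highest in WT, at 64.6 and 63.1 CPM.

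Promoter sequences are shown for the 5 genes that hold the core letters TGACNNNGC of the antioxidant response element, the element through which Nfe2l1 acts on subunit genes. They are the 250 bases before the gene start from RefSeq (GRCm38.p6), read 5′ to 3′ on the gene's strand. Capitals mark letters that match any of TGACNNNGC, the looser TGANNNNGC, which contains it, CCAAT, or CCGGAAG, an Ets-type motif, on either strand.
Psmb5, chr14:54617996-54618245, minus strand: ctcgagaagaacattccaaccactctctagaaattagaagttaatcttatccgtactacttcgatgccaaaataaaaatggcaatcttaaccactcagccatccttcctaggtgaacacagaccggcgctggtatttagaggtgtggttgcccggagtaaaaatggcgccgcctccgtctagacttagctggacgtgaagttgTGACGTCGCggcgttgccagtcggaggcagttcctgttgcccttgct
Psmb6, chr11:70525107-70525356, plus strand: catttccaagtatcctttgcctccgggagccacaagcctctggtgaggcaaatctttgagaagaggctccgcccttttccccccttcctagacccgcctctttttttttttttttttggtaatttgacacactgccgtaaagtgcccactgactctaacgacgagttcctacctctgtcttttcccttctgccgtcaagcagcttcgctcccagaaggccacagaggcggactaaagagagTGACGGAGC
Psmc6, chr14:45329574-45329823, plus strand: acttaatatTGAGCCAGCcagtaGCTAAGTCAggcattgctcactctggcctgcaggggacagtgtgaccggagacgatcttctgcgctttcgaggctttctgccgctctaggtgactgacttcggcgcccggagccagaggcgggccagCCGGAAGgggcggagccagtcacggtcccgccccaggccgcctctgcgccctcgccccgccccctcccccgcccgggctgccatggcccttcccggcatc
Psmd12, chr11:107479278-107479527, plus strand: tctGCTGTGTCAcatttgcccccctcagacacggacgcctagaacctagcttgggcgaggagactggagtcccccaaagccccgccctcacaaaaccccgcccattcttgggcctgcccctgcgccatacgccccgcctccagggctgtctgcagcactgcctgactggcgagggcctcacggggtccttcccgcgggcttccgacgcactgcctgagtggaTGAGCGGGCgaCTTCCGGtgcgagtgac
Psmd9, chr5:123227940-123228189, plus strand: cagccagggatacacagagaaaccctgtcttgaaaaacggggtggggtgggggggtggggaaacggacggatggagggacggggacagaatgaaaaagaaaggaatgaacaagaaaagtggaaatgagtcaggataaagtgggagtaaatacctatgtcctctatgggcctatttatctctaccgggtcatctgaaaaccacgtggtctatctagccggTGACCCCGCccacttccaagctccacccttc
Sequences were found for 37 of the 45 genes, with 40 promoters in all. TGACNNNGC was in 5 of the 40 (12.5%), beside 10.2% of 32851 promoters of the same length. TGANNNNGC was in 15 (37.5%, beside 35.2%), CCAAT in 12 (30.0%, beside 33.9%) and CCGGAAG in 13 (32.5%, beside 6.91%). In the promoters printed, the leftmost letter of the TGACNNNGC match, as printed, stood 47 bases before the window's end in Psmb5, 9 in Psmb6, 227 in Psmc6, 247 in Psmd12 and 31 in Psmd9. In Psmc6 and Psmd12 the match reads on the opposite strand. Of these genes Psmc6 rose and the other 4 fell in KO_Smad7 over KO, and Psmd9, an assembly chaperone, was not called in KO over WT (−0.05, adjusted p = 0.51). A match describes letters in this window and not a bound site.

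The position of the genes was examined after their values were seen. Chromosome 11 holds 8 of the 45, namely Psmb3, Psmb6, Psmc5, Psmd3, Psmd11, Psmd12, Psme3 and Psme4. All 8 were called lower in KO than in WT, with a median log2 fold of −0.61, while of the 37 genes elsewhere 27 were called lower and 2 higher, with a median of −0.28. Of the 1335 genes tested on chromosome 11, 609 (45.6%) were called lower, with a median of −0.19, beside 0.04 for genes on the other chromosomes. In KO_Smad7 over KO the medians were −0.99 for the 8 genes and −0.86 for the 37. No test was made of this split.

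**Figure D4:**
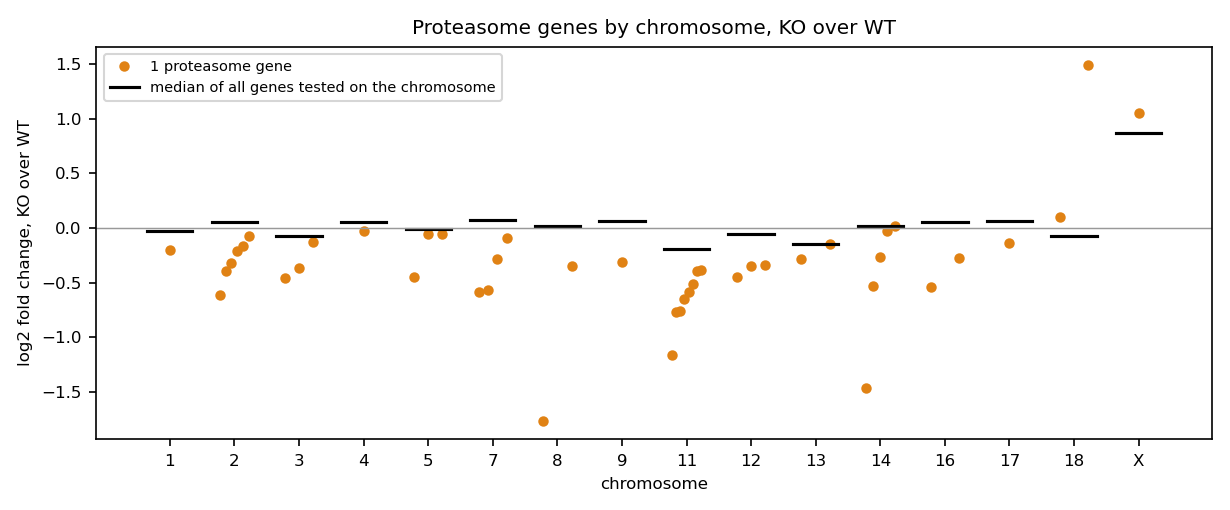
Log2 fold change of KO over WT for each proteasome gene (points) by chromosome, with the median of all genes tested on that chromosome as a line. The 8 genes of chromosome 11 all lie below the line of all chromosome 11 genes at −0.19, and Psmd10 on the X chromosome lies near the X-linked median.

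GC content moved with both comparisons over all genes. For the 714 genes tested with a GC content of at most 40%, the median log2 fold was 1.29 in KO_Smad7 over KO and −0.89 in KO over WT. For the 3357 genes above 56% it was −0.05 and 0.21. The proteasome genes were below 0 in every such class in KO_Smad7 over KO, with medians from −1.11 in the 3 genes above 56% to −0.59 in the 6 genes between 40% and 44%, and −0.35 for Psme4 alone in the lowest class. In KO over WT their class medians ran from −0.58 to −0.24. In the lowest 2 classes there they were not below all genes of like GC content, with −0.58 for Psme4 beside −0.89 up to 40%, and −0.34 beside −0.39 between 40% and 44%. With offsets per library for GC content and length, all 45 were called lower in KO_Smad7 over KO, with a median of −0.78, and 39 lower and 6 higher in KO over WT, with a median of −0.35. The 4 added to the higher genes in KO over WT were Psma2 (0.21), Psmd14 (0.21), Psme4 (0.19) and Psmg2 (0.24). The first 3 have GC contents of 41.3%, 40.4% and 38.4% and were called lower without offsets.

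**Figure D5:**
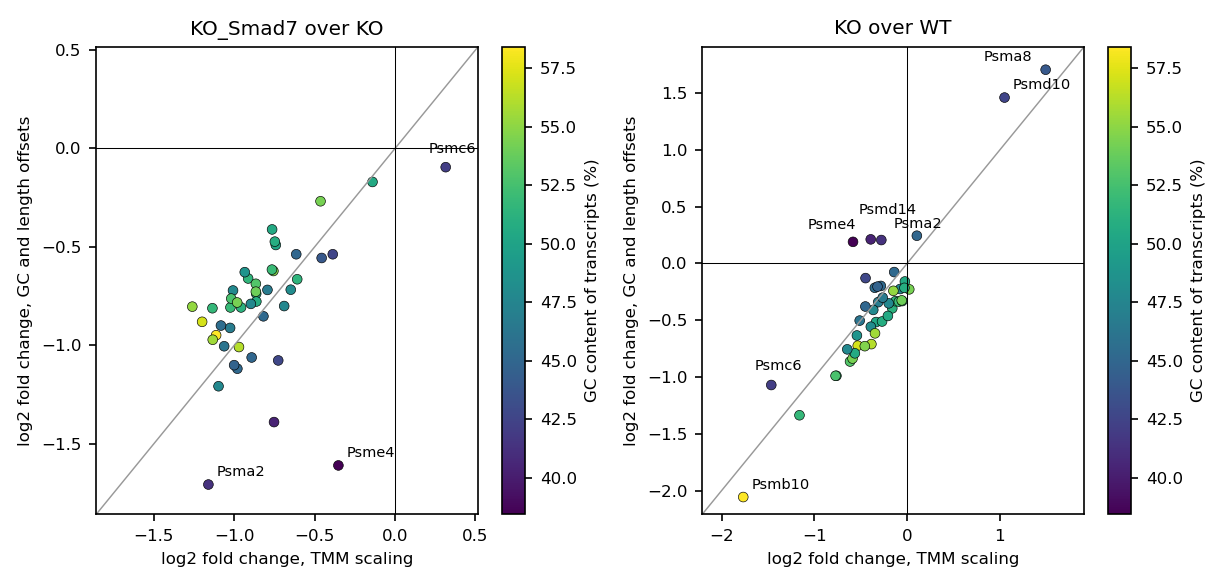
Log2 fold of each proteasome gene with offsets for GC content and length (vertical axis) against that with TMM scaling alone (horizontal axis), coloured by GC content, for KO_Smad7 over KO and KO over WT; the diagonal marks equal values. Genes of low GC content lie farthest from the diagonal, below it in KO_Smad7 over KO and above it in KO over WT, where Psma2, Psmd14 and Psme4 cross 0.

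Per length of exon (RPKM), which allows levels of different genes to be compared, Psmc5 was the highest in WT at 271 ± 8.5 RPKM, followed by Psma6 at 245 ± 16 RPKM and Psmb6 at 199 ± 1.8 RPKM (SD, n = 2 each). The difference between Psmc5 and Psma6 was close to the sum of their SDs. In the libraries labelled KO_Smad7 the order of these genes was another, with 55.1 ± 0.54 RPKM for Psmc5, 90.8 ± 1.5 RPKM for Psma6 and 57.6 ± 0.98 RPKM for Psmb6. The length is that of all annotated exons, so genes with long minor isoforms read low on this scale.

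Other genes of the pathway were taken from lists. Of all genes tested, 36.8% were called lower and 37.8% higher in KO_Smad7 over KO, and 33.3% and 34.5% in KO over WT. Of 14 further proteasome subunits, assembly factors and associated enzymes, 11 were called lower and 1 higher in KO_Smad7 over KO (median −0.57), and 9 lower and 4 higher in KO over WT (median −0.26). For KO over WT 6 were lower and 4 higher with offsets (median −0.06), and 7 lower and 4 higher with library size scaling (median −0.12). Among all genes, 6739 were called lower and 5050 higher in KO over WT with offsets, and 4496 and 7257 with library size scaling. Pomp, the maturation factor of the core, averaged 65.7 ± 0.19 CPM in the libraries labelled KO_Smad7, 121.9 ± 4.7 CPM in KO and 169.6 ± 11 CPM in WT. The ubiquitin receptor Adrm1 averaged 49.6 ± 2.8 CPM in the libraries labelled KO_Smad7, 85.9 ± 1.3 CPM in KO and 107.9 ± 0.31 CPM in WT. The small lid subunit Sem1 averaged 63.8 ± 1.0 CPM in the libraries labelled KO_Smad7, 110.6 ± 0.72 CPM in KO and 126.7 ± 3.0 CPM in WT. All 3 were called lower in both comparisons, with Sem1 at 0.43 in KO over WT under GC and length offsets. The COP9 signalosome is a complex related to the lid. Of its 10 genes 9 were called lower and 1 higher in KO_Smad7 over KO (median −0.77), and all 10 lower in KO over WT (median −0.44). The gene that rose was Cops2, with 186.1 ± 5.9 CPM in the libraries labelled KO_Smad7, 84.6 ± 5.5 CPM in KO and 360.3 ± 3.1 CPM in WT, lowest in KO as Psmc6 was. Its GC content is 40.9%, and its log2 fold of 1.14 in KO_Smad7 over KO was 0.54 with offsets, and that of −2.09 in KO over WT was −1.56.

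Of 17 genes of ubiquitin supply and shuttling, 14 were called lower and 1 higher in KO_Smad7 over KO (median −0.60), and 8 lower and 5 higher in KO over WT (median −0.04). Over all genes tested the shares were 36.8% lower and 37.8% higher in KO_Smad7 over KO, and 33.3% and 34.5% in KO over WT. The counts for KO over WT were 13 lower and 4 higher with offsets (median −0.31), and 6 lower and 9 higher with library size scaling (median 0.10). Uba6, an activating enzyme for ubiquitin with a GC content of 38.9%, was the 1 higher, with 93.3 ± 3.8 CPM in the libraries labelled KO_Smad7, 31.7 ± 1.3 CPM in KO and 139.6 ± 2.3 CPM in WT. Its log2 fold of 1.55 in KO_Smad7 over KO was 0.39 with offsets, and that of −2.14 in KO over WT was −1.42. Uba1, the main activating enzyme, on the X chromosome, averaged 1046 ± 31 CPM in the libraries labelled KO_Smad7, 1439 ± 37 CPM in KO and 828.1 ± 2.0 CPM in WT. Of the 12 genes of the list around Nfe2l1, 4 were called lower and 4 higher in KO_Smad7 over KO (median 0.02), and 4 lower and 6 higher in KO over WT (median 0.09). The first 2 counts are 33.3% each, near the shares of all genes tested. The counts of this list turned on the scaling: when scaled by library size, 1 was lower and 8 higher in KO_Smad7 over KO, and 2 lower and 7 higher in KO over WT. Of all 17342 genes, 4492 were then lower and 8609 higher in KO_Smad7 over KO, and 4496 and 7257 in KO over WT. Nfe2l1 itself averaged 226.3 ± 7.8 CPM in the libraries labelled KO_Smad7, 249.8 ± 0.34 CPM in KO and 253.9 ± 3.3 CPM in WT. Its log2 fold was −0.14 (adjusted p = 0.00043; 0.11 with library size scaling) in KO_Smad7 over KO and −0.02 (adjusted p = 0.59) in KO over WT. Nfe2l1 was called in opposite directions in KO over WT, at −0.33 with offsets and 0.12 with library size scaling. Ddi2, the protease that activates Nfe2l1, averaged 60.9 ± 0.66 CPM in the libraries labelled KO_Smad7, 76.2 ± 0.91 CPM in KO and 123.9 ± 7.6 CPM in WT. It fell in both comparisons, by log2 folds of −0.32 in KO_Smad7 over KO, a call lost at −0.08 with library size scaling, and −0.70 in KO over WT. Other genes of this list went the other way. Ngly1 and Maff were called higher in both comparisons, at 0.31 and 0.35 in KO_Smad7 over KO and 0.515 and 1.34 in KO over WT. With offsets for GC content and length Ngly1 was at −0.13 in KO_Smad7 over KO and was not called.

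The list of immunoproteasome and class I antigen presentation genes had mostly higher calls in KO_Smad7 over KO, led by class I genes. Of 9 tested, 8 were called higher and 1 lower (median 1.36), and in KO over WT 5 higher and 1 lower (median 0.40). Over all genes tested 37.8% were called higher and 36.8% lower in KO_Smad7 over KO, and 34.5% and 33.3% in KO over WT. Nlrc5, an activator of class I genes, averaged 16.3 ± 1.3 CPM in the libraries labelled KO_Smad7, 1.01 ± 0.35 CPM in KO and 0.724 ± 0.31 CPM in WT. The peptide transporter gene Tap1 averaged 23.7 ± 1.2 CPM in the libraries labelled KO_Smad7, 3.22 ± 0.80 CPM in KO and 1.87 ± 0.051 CPM in WT. B2m, the class I light chain, averaged 40.8 ± 1.5 CPM in the libraries labelled KO_Smad7, 15.8 ± 0.019 CPM in KO and 10.3 ± 0.87 CPM in WT. All 3 were highest in the libraries labelled KO_Smad7. The gene called lower was Irf1, with −0.76 in KO_Smad7 over KO. The immunoproteasome subunit Psmb9 was low, at 1.52 ± 0.14 CPM in the libraries labelled KO_Smad7, 0.468 ± 0.16 CPM in KO and 0.714 ± 0.18 CPM in WT, with a log2 fold of 1.70 (adjusted p = 3.3e-05) in KO_Smad7 over KO. Exons of Psmb9 overlap those of Tap1 on the opposite strand by 5.79% of their length. Psmb8 was too low to test. Psmb10, Psme1 and Psme2, which interferon induces with Psmb9, were each called lower in the same comparison, as given above.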

How the data were processed

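The authors deposited raw read counts per gene symbol. STAR and featureCounts 1.6.3, with the builds mm10 and GRCm38, are named in the submitters' processing notes; the sources used here do not give the annotation release, strand setting or treatment of shared reads. Libraries were poly(A)-selected, per the labels' protocols. Of the count columns, 6 matched the labels. A further 2 matched no label and were not used, so the knockout transfected with lncSmad7 was not analysed here and 3 of 4 planned comparisons were run.

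Genes were filtered with filterByExpr (17342 left), scaled by TMM and tested in 1 fit over the 3 groups with edgeR's quasi-likelihood test (edgeR 4.0.16, limma 3.58.1, R 4.3.3; robust; 3 residual degrees of freedom), with Benjamini-Hochberg adjustment over all genes tested and a threshold of 0.05. The common biological coefficient of variation was 2.47%. CPM use TMM library sizes, and RPKM add the exon length of GENCODE vM21. Positions and GC content came from the same annotation. The test was also run on simulated counts with few changed genes and no effect of GC content. That run does not measure how often calls are wrong in these data. Replicates differed beyond counting noise (chi-square per degree of freedom 1.57 to 1.89), so none was taken for a second deposit.

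Members and gene lists were chosen with earlier results of these data known. Values in every library are given for the member of each role with the largest rise or fall past the threshold, and for catalytic, activator and inhibitor genes; of the pathway lists, genes with the smallest adjusted p and those fixed by name are given. Alternatives were RLE and library size scaling, DESeq2 1.42.0, 2 other filters on low counts, a fit of 4 libraries, a replicate block, glmTreat against a fold of 1.2, offsets for GC content and length (mgcv 1.9.3, values for 97.8% of genes tested) and each replicate left out.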

Additional observations from a re-analysis of the deposited data

How the results depend on the processing

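Replicate numbers are shared between the groups, but same-numbered libraries did not deviate together (correlations 0.006, 0.005 and 0.026), and with the replicate block the calls were 2 higher and 35 lower in KO over WT, 1 and 44 in KO_Smad7 over KO, and 2 and 43 in KO_Smad7 over WT, as without it. In KO over WT the median log2 fold of the 45 genes was −0.39 with RLE scaling, −0.19 with library size scaling, −0.38 with DESeq2 and −0.28 without the chromosome 11 genes, and between −0.36 and −0.29 with 1 replicate left out. Genes called higher numbered 5 with library size scaling, 6 with GC and length offsets and 1 among core, base, lid and assembly genes alone, and 24 were called lower against a fold of 1.2. In KO_Smad7 over KO the median was −0.62 with library size scaling, −0.88 with DESeq2, −0.91 without a filter, −0.76 with a filter at 1 CPM, −0.78 with offsets and −0.90 over core, base, lid and assembly genes, and between −0.92 and −0.88 with 1 replicate left out. Genes called higher numbered 0 against a fold of 1.2 by edgeR's glmTreat, where Psmc6 had an adjusted p = 0.056, and 0 with offsets. In KO_Smad7 over WT the median was −1.22 with RLE scaling, −0.78 with library size scaling, −1.23 with DESeq2, −1.07 with a filter at 1 CPM, −1.21 with offsets, −1.14 without the chromosome 11 genes and −1.25 over core, base, lid and assembly genes, 1 of which was called higher, and between −1.22 and −1.15 with 1 replicate left out. The count of genes called lower stayed within 1.5 times in each of these settings.

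Directions turned with offsets for Psma2 (0.21), Psmd14 (0.21), Psme4 (0.19) and Psme1 (−0.23) in KO over WT and for Psmc6 (−0.10) in KO_Smad7 over KO. With library size scaling, of the genes called with TMM, Psmf1 turned to 0.11 in KO_Smad7 over KO and 0.045 in KO_Smad7 over WT. In KO over WT Psmb1 (0.005), Psmb4 (0.018) and Psmd8 (0.055) turned and, with Psma7, Psmd1 and Psmf1, lost their calls. Of the genes not called there with TMM, Psmb2 turned to 0.12 and was called higher, and Psmd5, Psmd9, Psme2 and Psmg3 turned without a call. The cause of each of these turns was not tested. In KO over WT, Psmd8 lost its call whichever of the 6 libraries was left out, Psmb1 without KO replicate 1 or WT replicate 2, and Psmf1 without KO replicate 1; Psmf1 also lost its call in KO_Smad7 over KO without KO replicate 2 or KO_Smad7 replicate 2. Of all calls, the share higher was 50.7% in KO_Smad7 over KO, 50.9% in KO over WT and 52.6% in KO_Smad7 over WT, and 65.7%, 61.7% and 68.3% with library size scaling. The subsets without chromosome 11 and of core, base, lid and assembly genes were chosen after seeing the data. Each group has 2 libraries, and leaving 1 out assumes that the lone library varies like the other groups.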
